A study of Mus musculus with 6 samples.

Results

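The basement membrane genes examined here numbered 10, read in RNA-seq libraries of gonadal white adipose tissue (gWAT), the fat pad beside the male reproductive organs. They were the laminin alpha chain genes *Lama2*, *Lama4* and *Lama5*, the beta chain genes *Lamb1*, *Lamb2* and *Lamb3*, the gamma chain gene *Lamc1*, the nidogen genes *Nid1* and *Nid2*, and *Hspg2*, which encodes perlecan. They were chosen by name, and all 10 were found by their NCBI gene identifiers among the 19790 rows of the deposited count table. The mice were wild-type C57BL/6 animals. Of these, 3 ate normal chow (NCD) and 3 ate a high-fat diet (HFD), each for 8 weeks. The sample labels give 6 weeks as the age at which feeding began, and the methods state a later age for the HFD. All mice of both diets carry the same genotype label, and the methods describe the animals as male.

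A basement membrane is a thin sheet of extracellular matrix that lies under epithelia and endothelia and wraps each adipocyte, muscle fibre and Schwann cell. Laminins are its cell-facing polymer, built as trimers of 1 alpha, 1 beta and 1 gamma chain, while type IV collagen forms a second network. Nidogens bridge the laminin and collagen networks, and perlecan, a large heparan sulphate proteoglycan, binds both and holds growth factors. Adipocytes are known to rest in such a sheet, and the capillaries between them have their own.

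Library depth lay between 49575113 and 66360046 counts. Levels are given as TMM-scaled CPM, meaning a gene's count as a share of the library total after that total was corrected by the TMM method of edgeR. NCD replicate 1 stood apart from the other mice. In it, 58.6% of the counts fell on 11 genes of seminal vesicle secretion, against 11.2% and 2.30% in NCD replicates 2 and 3, and at most 1.21e-05% in each HFD library. Its adipocyte markers summed to 3887 TMM-scaled CPM, against 11818 to 20978 in the other 5 mice. Each diet comparison is therefore given for all 6 mice and again without NCD replicate 1. Leaving that mouse out does not remove the admixture, which NCD replicates 2 and 3 also carry. In the edgeR fit of 5 mice all 11 seminal vesicle genes still passed an adjusted p under 0.05 as lower on HFD. For genes present in the admixed RNA, diet and admixture cannot be told apart in either comparison. In bulk tissue, fewer cells of a type and less RNA per cell cannot be told apart.

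With all 6 mice, none of the 10 genes passed an adjusted p under 0.05 in edgeR's quasi-likelihood test (0 of 10, where 7.47% of the 15241 genes tested passed, 5.58% as higher and 1.9% as lower on HFD). At an unadjusted p under 0.05, 1 of the 10 passed, *Hspg2*, where 29.7% of all genes did, and DESeq2 called 1, also *Hspg2*, where it called 25.7% of all genes. Without NCD replicate 1, 3 of the 10 passed, where 20.9% of the 15510 genes tested did, 10.7% as higher and 10.1% as lower. These were *Lamb3* and *Lama5*, which rose on HFD, and *Nid2*, which fell. NCD and HFD values stood fully apart in 2 of the 10 genes with all 6 mice, against 39.2% of all genes. Both were higher on HFD, as were 20.5% of all genes, and 18.7% of all genes lay lower without overlap. They stood fully apart in 7 of the 10 without NCD replicate 1, against 56.7% of all genes, 4 being higher (28.5% of all genes) and 3 lower (28.1%). Without NCD replicate 1, the 10 genes were read on the TMM scale of the 6 mice, and the shares of all genes on that of the 5. The median log2 fold change of the 10 genes was 0.19 with 6 mice and 0.03 with 5, beside medians of all genes of -0.08 and 0.02.

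**Figure D1:**
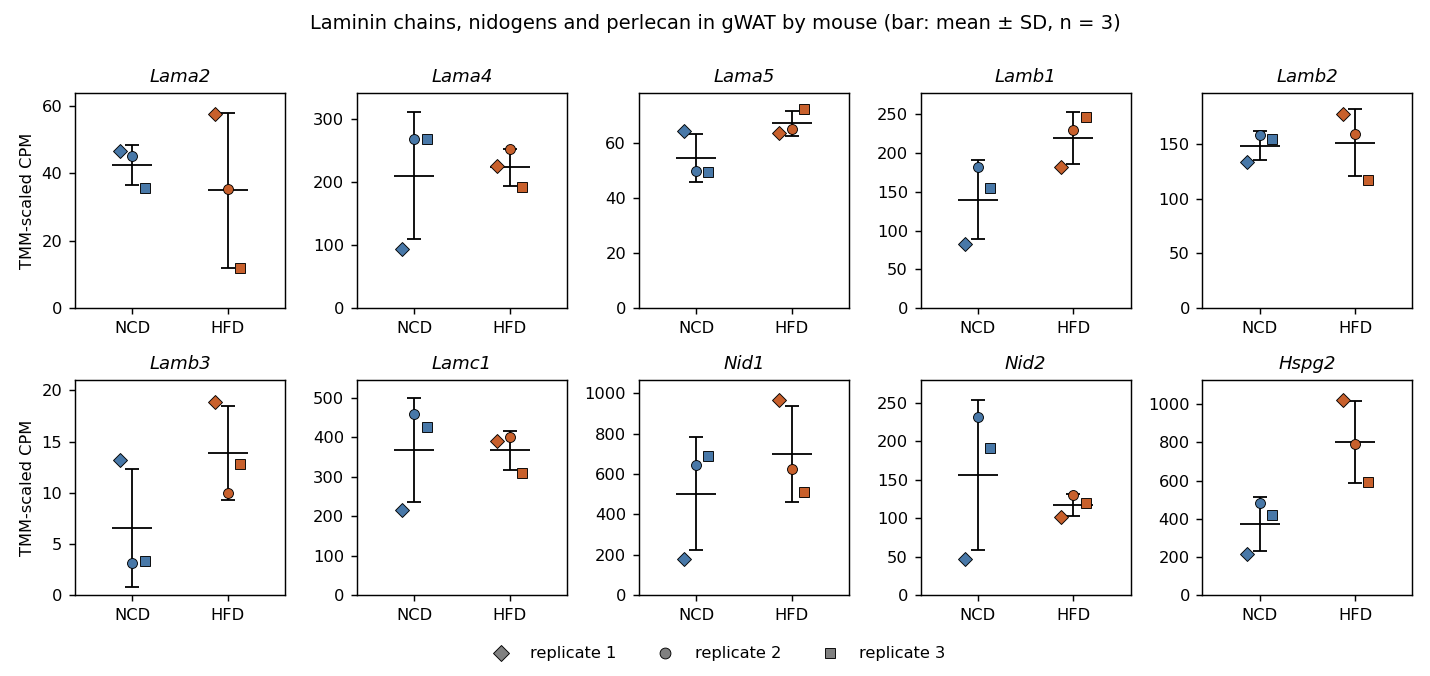
TMM-scaled CPM of each of the 10 genes (vertical axes, starting at 0) in the 3 NCD-fed mice (blue) and the 3 HFD-fed mice (orange), with the symbol giving the replicate and the bar the mean ± SD. NCD replicate 1 (diamond) is the lowest of the 6 mice for Lama4, Lamb1, Lamc1, Nid1, Nid2 and Hspg2, and lies above both other NCD-fed mice for Lama2, Lama5 and Lamb3.

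*Lamb3* showed the largest fold change of the 10 genes without NCD replicate 1. Its chain joins that of *Lama3* in the laminin that anchors skin and other epithelia, and its loss causes a blistering disease. *Lamb3* (NCBI gene 16780, chr1:193294353-193343878, plus strand, GRCm38.p6) was at 13.2, 3.13 and 3.29 TMM-scaled CPM for NCD replicates 1 to 3, in that order, and at 18.9, 9.95 and 12.8 for HFD replicates 1 to 3. Every HFD-fed mouse lay at least 3.02-fold above NCD replicates 2 and 3, but NCD replicate 1 lay inside the HFD range. Its log2 fold change was 1.09 (SE, the standard error, 0.64, edgeR adjusted p = 0.300) with all 6 mice. Without NCD replicate 1 it was 2.12 (SE 0.32, edgeR adjusted p = 0.0121). That call was lost when NCD replicate 2 or NCD replicate 3 was left out as well, where edgeR gave adjusted p-values of 0.0808 and 0.0895 and log2 fold changes of 2.08 and 2.17. Those smaller fits called 3.32% and 1.28% of all genes. By mean level it was the least abundant of the 10 genes, with 177 counts in its lowest library, where counting error alone gives a relative SD of 7.52%.

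*Lama3*, its alpha chain partner, did not pass in either comparison. *Lama3* was at 12.8, 3.95 and 2.42 TMM-scaled CPM for NCD replicates 1 to 3 and at 3.45, 2.70 and 2.18 for HFD replicates 1 to 3. The diets overlapped, and without NCD replicate 1 its log2 fold change was -0.18 (adjusted p = 0.727 from edgeR). The difference between *Lamb3* and *Lama3* was not itself tested. *Lamb3* and *Lama3* were each highest among the NCD-fed mice in NCD replicate 1, as were the epithelial markers. These 10 markers summed to 1524, 176 and 47.9 TMM-scaled CPM for NCD replicates 1 to 3 and to 46.2, 181 and 56.7 for HFD replicates 1 to 3. Without NCD replicate 1, 4 of the 10 passed as lower on HFD and 3 had a positive log2 fold change. *Epcam*, a defining marker, was at 115, 11.3 and 2.73 TMM-scaled CPM on NCD and at no more than 0.41 on HFD, where *Cldn7* had no count in any mouse. *Krt7*, a keratin that did not pass, was at 11.6, 5.73 and 4.43 on NCD and 11.2, 36.3 and 10.8 on HFD. *Lamb3* was highest in HFD replicate 1, whose epithelial sum of 46.2 was close to the 47.9 of NCD replicate 3. In HFD replicate 2 the sum came mostly from *Krt19*, *Krt8*, *Krt7* and *Krt18*. These had 5241, 4532, 3028 and 1874 counts there, and *Epcam* had 34. The 5 mesothelial markers found, of the cells that line visceral fat, summed to 230, 148 and 101 on NCD and to 234, 532 and 182 on HFD, and the 8 macrophage markers to 671, 770 and 652 on NCD and 4603, 1828 and 2081 on HFD. In NCD replicate 1 *Upk1b* had 4951 counts, and no other mesothelial marker had more than 1230. *Cd9* had 11785 there, and no other macrophage marker had more than 5453. Both sums thus rest largely on 1 gene in that mouse. The part of these cell types in the *Lamb3* difference was not tested.

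*Lama5* encodes an alpha chain found in most mature basement membranes of epithelia and vessels. *Lama5* (NCBI gene 16776, chr2:180176373-180225904, minus strand) was at 64.4, 49.6 and 49.4 TMM-scaled CPM for NCD replicates 1 to 3 and at 63.6, 65.1 and 72.2 for HFD replicates 1 to 3. The HFD values lay above NCD replicates 2 and 3 by at least 1.28-fold, while NCD replicate 1 fell between HFD replicates 1 and 2. The fitted log2 fold change came to 0.30 (SE 0.16, edgeR adjusted p = 0.263) with all 6 mice and 0.45 (SE 0.11, edgeR adjusted p = 0.0432) without NCD replicate 1. The second value stood close to the threshold. Leaving out NCD replicate 2, NCD replicate 3, HFD replicate 2 or HFD replicate 3 as well gave adjusted p-values of 0.190, 0.201, 0.107 and 0.0794 from edgeR, with log2 fold changes between 0.39 and 0.47.

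The 250 bases upstream of a RefSeq start are shown for the 2 genes that rose without NCD replicate 1, whose windows differ in GC boxes. RefSeq sequences (GRCm38.p6) were at hand for 7 of the 10 genes. The *Lama5* window lies on the minus strand at chr2:180225860-180226109. For *Lamb3* the first of 2 listed starts is used, on the plus strand at chr1:193301744-193301993. Both listed starts lie inside the *Lamb3* gene span given above and not at its first base. Capitals mark the GC box GGGCGG, or its reverse complement CCGCCC, on either strand. The end of the *Lama5* window, with the last of its marked boxes, lies inside the *Lama5* gene span given above.
Lama5: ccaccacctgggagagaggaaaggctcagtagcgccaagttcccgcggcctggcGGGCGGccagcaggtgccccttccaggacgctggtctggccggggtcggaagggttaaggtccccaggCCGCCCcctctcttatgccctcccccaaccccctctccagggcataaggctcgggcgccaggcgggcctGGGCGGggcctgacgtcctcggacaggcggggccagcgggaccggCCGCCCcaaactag
Lamb3: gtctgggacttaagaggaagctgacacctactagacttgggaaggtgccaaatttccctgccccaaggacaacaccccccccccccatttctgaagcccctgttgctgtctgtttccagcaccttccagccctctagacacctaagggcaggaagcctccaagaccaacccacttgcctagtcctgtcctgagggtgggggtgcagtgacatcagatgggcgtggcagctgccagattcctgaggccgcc
The *Lama5* window held 4 GC boxes and 19 CpG dinucleotides, and the *Lamb3* window held 0 and 2 (0 and 3 at its other start). A GC box was found in 32.7% of the 32851 promoter windows of the same length, and the median window held 6 CpG dinucleotides. Of the other genes, *Hspg2* had 5 GC boxes, *Lamb1* 2 and *Nid1* 1, and *Lama2* and *Lamb2* had none. No window held TATAAA on either strand, which 12.4% of all windows did.

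*Lama4* and *Lama2* complete the alpha chains. *Lama4* encodes the short alpha chain of capillary, adipocyte and muscle basement membranes. *Lama4* (NCBI gene 16775, chr10:38965515-39110188, plus strand) was at 94.0, 269 and 268 TMM-scaled CPM for NCD replicates 1 to 3 and at 226, 252 and 193 for HFD replicates 1 to 3. All HFD-fed mice lay between NCD replicate 1 and the other NCD-fed mice. Its log2 fold change was 0.09 (standard error 0.41) with all 6 mice and -0.25 (standard error 0.15) without NCD replicate 1, where edgeR gave adjusted p-values of 0.903 and 0.291. *Lama2* encodes the alpha chain of muscle fibres and Schwann cells, whose loss causes a congenital muscular dystrophy. *Lama2* (NCBI gene 16773, chr10:26981285-27617191, minus strand) was at 46.5, 45.2 and 35.8 TMM-scaled CPM on NCD and at 57.7, 35.4 and 11.8 on HFD. HFD replicate 1 was the highest and HFD replicate 3 the lowest of the 6 mice. The log2 fold change of -0.28 (SE 0.53, edgeR adjusted p = 0.746) changed sign to 0.15 without HFD replicate 3, and to 0.23 when libraries were scaled by their totals alone.

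*Lamb1* and *Lamb2* encode the beta chains of most laminins, *Lamb2* being prominent in the kidney glomerulus and at the nerve-muscle synapse. *Lamb1* (NCBI gene 16777, chr12:31265146-31329644, plus strand) was at 83.2, 182 and 154 TMM-scaled CPM for NCD replicates 1 to 3 and at 182, 229 and 247 for HFD replicates 1 to 3. The diets did not overlap, but HFD replicate 1 exceeded NCD replicate 2 by a factor of only 1.0015. The log2 fold change was 0.65 (SE 0.32, edgeR adjusted p = 0.228) with 6 mice and 0.40 (SE 0.18, edgeR adjusted p = 0.172) with 5. *Lamb2* (NCBI gene 16779, chr9:108479847-108490530, plus strand) was at 133, 158 and 154 TMM-scaled CPM on NCD and at 177, 159 and 117 on HFD. The HFD values enclosed the NCD values, and the log2 fold change was 0.03 (SE 0.20, edgeR adjusted p = 0.943).

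*Lamc1* encodes the gamma chain shared by most laminins and carries their binding site for nidogen. *Lamc1* (NCBI gene 226519, chr1:153218922-153332786, minus strand) was at 216, 460 and 426 TMM-scaled CPM for NCD replicates 1 to 3 and at 390, 401 and 310 for HFD replicates 1 to 3. As with *Lama4*, the HFD-fed mice lay between NCD replicate 1 and the other NCD-fed mice. Its log2 fold change was -0.002 (SE 0.33, edgeR adjusted p = 0.997) with all 6 mice, and its sign turned under most settings compared. In the fit of 5 mice it was -0.26 (SE 0.17, edgeR adjusted p = 0.322).

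*Nid2* fell on HFD once NCD replicate 1 was left out, and *Nid1*, the more abundant of the pair, did not pass in either comparison. *Nid2* (NCBI gene 18074, chr14:19751257-19811787, plus strand) was at 46.7, 231 and 191 TMM-scaled CPM for NCD replicates 1 to 3 and at 102, 131 and 120 for HFD replicates 1 to 3. NCD replicates 2 and 3 lay at least 1.46-fold above every HFD-fed mouse, and NCD replicate 1 lay below them all. The fitted log2 fold change came to -0.41 (SE 0.55, edgeR adjusted p = 0.643) with all 6 mice. Without NCD replicate 1 it was -0.83 (SE 0.16, edgeR adjusted p = 0.0228). Leaving out NCD replicate 2, NCD replicate 3, HFD replicate 2 or HFD replicate 3 as well raised the adjusted p to 0.127, 0.0886, 0.0504 and 0.0559 in edgeR, with log2 fold changes between -0.95 and -0.69.

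*Nid1* (NCBI gene 18073, chr13:13437602-13512275, plus strand) was at 179, 642 and 686 TMM-scaled CPM on NCD and at 964, 623 and 509 on HFD. HFD replicate 1 was the highest and HFD replicates 2 and 3 lay below NCD replicates 2 and 3. The log2 fold change was 0.48 (SE 0.55, edgeR adjusted p = 0.589) with 6 mice and 0.08 (SE 0.30, edgeR adjusted p = 0.861) with 5. Both genes of a ratio come from 1 library, so that no scaling between mice enters it. The ratio of *Nid2* to *Nid1*, in counts per kilobase of exon, was 0.326, 0.450 and 0.347 for NCD replicates 1 to 3 and 0.132, 0.262 and 0.294 for HFD replicates 1 to 3. Every HFD-fed mouse lay below every NCD-fed mouse, NCD replicate 1 included. The mean log2 ratio of the 3 mice was -1.43 with an SD of 0.25 on NCD and -2.21 with an SD of 0.62 on HFD, which differ by -0.77 (p = 0.1 by exact permutation, two-sided, which no split of 3 and 3 mice can go below). Without HFD replicate 1 the difference was -0.42, the smallest of the fits that left out a mouse.

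*Hspg2* and *Lamb3* had the largest fold changes of the 10 genes with all 6 mice, and neither passed. Perlecan is the main heparan sulphate proteoglycan of vascular basement membranes. *Hspg2* (NCBI gene 15530, chr4:137468751-137570630, plus strand) was at 216, 481 and 421 TMM-scaled CPM for NCD replicates 1 to 3 and at 1022, 793 and 591 for HFD replicates 1 to 3. All HFD values exceeded all NCD values, by at least 1.23-fold. Means over 3 mice were 373 with an SD of 139 on NCD and 802 with an SD of 216 on HFD. Its log2 fold change was 1.10 (SE 0.39, edgeR adjusted p = 0.125) with all 6 mice and 0.84 (SE 0.27, edgeR adjusted p = 0.0779) without NCD replicate 1, so that it did not pass in either. It stayed positive under every setting compared, from 0.62 to 1.48, and DESeq2 gave an adjusted p of 0.0258 with 6 mice and 0.00972 with 5. With 5 mice *Hspg2* also passed in edgeR with HFD replicate 3 left out (adjusted p = 0.0489). The 8 endothelial markers summed to 286, 825 and 975 TMM-scaled CPM on NCD and to 1190, 1014 and 1011 on HFD. The sum likewise placed NCD replicate 1 lowest and HFD replicate 1 highest, but not every marker did. Without NCD replicate 1, 6 of the 8 markers had a positive log2 fold change. *Kdr* went the other way, with 10627 and 10233 counts for NCD replicates 2 and 3 and 9063, 9906 and 6251 for HFD replicates 1 to 3. The part of endothelial cells in the *Hspg2* values was not tested.

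**Figure D2:**
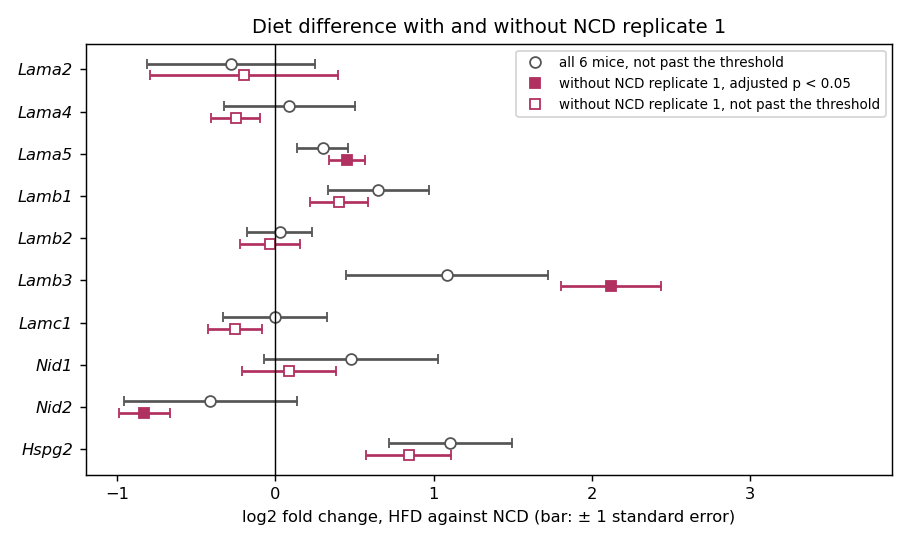
Log2 fold change of HFD against NCD (horizontal axis) with its standard error for the 10 genes, from the edgeR fit of all 6 mice (grey circles) and of the 5 mice without NCD replicate 1 (red squares). Filled symbols passed an adjusted p under 0.05, namely Lama5, Lamb3 and Nid2 in the fit of 5 mice, and no gene in the fit of 6.

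Levels of different genes were compared in TMM-scaled CPM per kilobase of exon. *Nid1* was the highest of the 10 genes in all 6 mice, at 29.3, 105 and 113 per kilobase for NCD replicates 1 to 3 and at 158, 102 and 83.6 for HFD replicates 1 to 3. On HFD the mean order ran on with *Hspg2* (56.4), *Lamc1* (48.1), *Lamb1* (37.5), *Lama4* (37.0), *Lamb2* (26.9), *Nid2* (24.1), *Lama5* (5.88), *Lama2* (3.56) and *Lamb3* (2.71), all per kilobase. Of these neighbours, only *Nid1* and *Hspg2*, *Lama4* and *Lamb2*, and *Nid2* and *Lama5* had ranges over the 3 HFD-fed mice that did not overlap. *Hspg2* held rank 2 or 3 on HFD and rank 5 in each NCD-fed mouse. *Nid2* held ranks 3 and 4 in NCD replicates 2 and 3 and rank 6 or 7 in the other mice.

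The laminin alpha and beta chain classes were then summed in TMM-scaled CPM per kilobase. The 5 alpha chain genes summed to 28.4, 54.0 and 52.9 for NCD replicates 1 to 3 and to 49.1, 51.3 and 39.7 for HFD replicates 1 to 3. The 3 beta chain genes summed to 40.5, 59.8 and 54.5 on NCD and to 66.3, 69.5 and 65.6 on HFD. *Lama4* made up 54.7%, 82.3% and 84.0% of the alpha chain transcripts for NCD replicates 1 to 3 and 76.0%, 81.3% and 80.4% for HFD replicates 1 to 3. *Lamb1* made up 35.2%, 52.0% and 48.5% of the beta chain transcripts on NCD and 46.9%, 56.5% and 64.4% on HFD, and *Lamb2* nearly all of the rest. *Lama5* held 8.06% and 8.21% of the alpha chain transcripts in NCD replicates 2 and 3, 11.4%, 11.2% and 16.0% for HFD replicates 1 to 3, and 19.9% in NCD replicate 1.

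**Figure D3:**
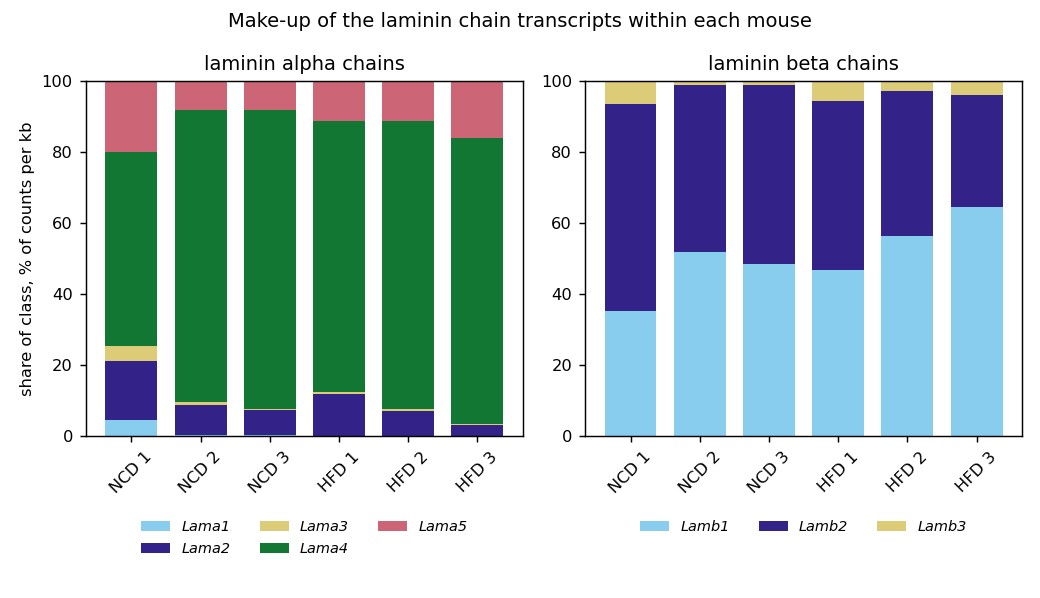
Share of each gene in the laminin alpha and beta chain transcripts of a mouse (vertical axes, percent of the counts per kilobase of exon in that class), with 1 bar for each mouse. Lama4 is the largest share of the alpha chains in all mice, Lamb1 and Lamb2 hold most of the beta chains, and NCD replicate 1 has the lowest Lama4 share, 54.7%, and the highest Lama5 share, 19.9%.

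Among the other ratios fixed for comparison, that of *Lamb2* to *Lamb1* was 1.66, 0.905 and 1.04 for NCD replicates 1 to 3 and 1.01, 0.721 and 0.493 for HFD replicates 1 to 3. HFD replicate 1 overlapped the NCD values, and the difference in mean log2 ratio of -0.70 had p = 0.2 in the exact two-sided permutation test. The ratio of *Lama5* to *Lama4* was 0.363, 0.0980 and 0.0977 on NCD and 0.150, 0.137 and 0.199 on HFD. Its log2 difference was 0.08 with all 6 mice (exact permutation test, p = 1) and 0.71 without NCD replicate 1, where the diets did not overlap (p = 0.2 by exact permutation, which no split of 2 and 3 mice can go below). The ratio of *Lama2* to *Lama4* was 0.305, 0.104 and 0.0821 on NCD and 0.157, 0.0866 and 0.0377 on HFD, with a log2 difference of -0.78 (exact permutation test, p = 0.5). Over these 4 ratios none could reach a p under 0.05 with 3 mice a group, and adjusted by Benjamini-Hochberg their p-values were between 0.4 and 1.

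The genes most like a member in pattern were sought among all genes tested, by the root mean square difference of centred log2 CPM over the 6 mice. For *Lama4* these were *Rasl12*, *Shf* and *Palm*, at 0.056, 0.064 and 0.085, and among the 10 genes *Lamc1* at 0.186. For *Lamb1* they were *Mapkapk3*, *Fbxw17* and *B9d2*, at 0.058, 0.084 and 0.085. For *Nid1* they were *Plin5*, a lipid droplet protein, *C1qtnf9*, a secreted adipose hormone, and *Krt222*, at 0.106, 0.115 and 0.120. For *Hspg2* they were *Sema3g*, an endothelial semaphorin, *Adgre5* and *Il6ra*, at 0.099, 0.107 and 0.117. *Lama4*, *Lamb1*, *Nid1* and *Hspg2* were all lowest in NCD replicate 1.

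Partners and receptors of these proteins were counted in the same fits. Of 29 such genes, 1 passed with all 6 mice and 3 passed without NCD replicate 1 (3.45% and 10.3%, where 7.47% and 20.9% of all genes did). NCD and HFD values stood fully apart in 9 of the 29 with all 6 mice, against 39.2% of all genes. Among those 9, *Lama1* and *Col4a3* were lower on HFD and the others higher. *Tinagl1*, which encodes a secreted matricellular protein of basement membranes, rose in both. It was at 85.7, 57.9 and 57.9 TMM-scaled CPM for NCD replicates 1 to 3 and at 192, 129 and 146 for HFD replicates 1 to 3, without overlap. Its log2 fold change was 1.21 (SE 0.25, edgeR adjusted p = 0.0425) with 6 mice and 1.44 (SE 0.20, edgeR adjusted p = 0.0101) with 5. Leaving out any mouse other than NCD replicate 1 ended the 6-mouse call of *Tinagl1*, in fits that called only 2 to 7 genes of the whole table, and its log2 fold change there ran from 1.04 to 1.35. In the fit of 5 mice, leaving out NCD replicate 2 or NCD replicate 3 as well ended the calls of all 3 genes, with adjusted p-values in edgeR of 0.0735 and 0.0843 for *Tinagl1*, 0.132 and 0.126 for *Itga1* and 0.148 and 0.183 for *Lama1*.

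Of the 10 laminin receptor genes, *Itga1*, the integrin alpha subunit that binds type IV collagen and laminin, rose without NCD replicate 1. *Itga1* was at 47.2, 24.4 and 26.0 TMM-scaled CPM on NCD and 65.6, 45.9 and 43.5 on HFD, with a log2 fold change there of 1.05 (SE 0.21, edgeR adjusted p = 0.0229). NCD replicate 1 lay inside the HFD range, and with 6 mice the adjusted p was 0.216. The next 2 by p were *Itgb1*, the beta subunit common to most laminin-binding integrins, and *Itga7*, of muscle. *Itgb1* had a log2 fold change of 0.69 (adjusted p = 0.0733 from edgeR) and *Itga7* one of 0.67 (adjusted p = 0.0815 from edgeR) without NCD replicate 1. Both were higher in every HFD-fed mouse than in every NCD-fed mouse, at 552 to 788 against 389 to 430 TMM-scaled CPM for *Itgb1* and 263 to 393 against 54.4 to 206 for *Itga7*.

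Of the 4 remaining laminin chain genes, *Lama1*, the alpha chain of early embryonic basement membranes, fell without NCD replicate 1 (log2 fold change -4.05, adjusted p = 0.0448 from edgeR). *Lama1* also lost that call without HFD replicate 2 or HFD replicate 3 (adjusted p = 0.116 and 0.0724 from edgeR). It had 409, 126 and 130 counts for NCD replicates 1 to 3 and 0, 13 and 15 for HFD replicates 1 to 3. Its NCD level was 12.4, 2.11 and 2.42 TMM-scaled CPM, and it was highest in the library richest in seminal vesicle RNA. NCD replicate 2, with 11.2% of its counts on seminal vesicle genes, lay just below NCD replicate 3, with 2.30%. The part of that RNA in the *Lama1* values was not tested. *Lamc3*, a gamma chain gene, had a log2 fold change of -0.75 there (adjusted p = 0.334 from edgeR). None of the 6 type IV collagen genes passed in either comparison. *Col4a1* and *Col4a2*, which form the collagen of nearly all basement membranes, were higher in each HFD-fed mouse, at 1516 to 1743 against 393 to 1224 TMM-scaled CPM for *Col4a1* and 1106 to 1226 against 248 to 780 for *Col4a2*. In the fit of 5 mice their log2 fold changes were 0.47 and 0.62 (adjusted p = 0.158 and 0.0626 from edgeR), and that of *Col4a3*, of the kidney and lung collagen, was -2.08 (adjusted p = 0.0755 from edgeR). Of the 9 other basement membrane genes, *Col15a1* and *Sparc*, after *Tinagl1*, had the lowest p without NCD replicate 1, and their log2 fold changes were -1.02 and 0.96 (adjusted p = 0.0644 and 0.0972 from edgeR).

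**Figure D4:**
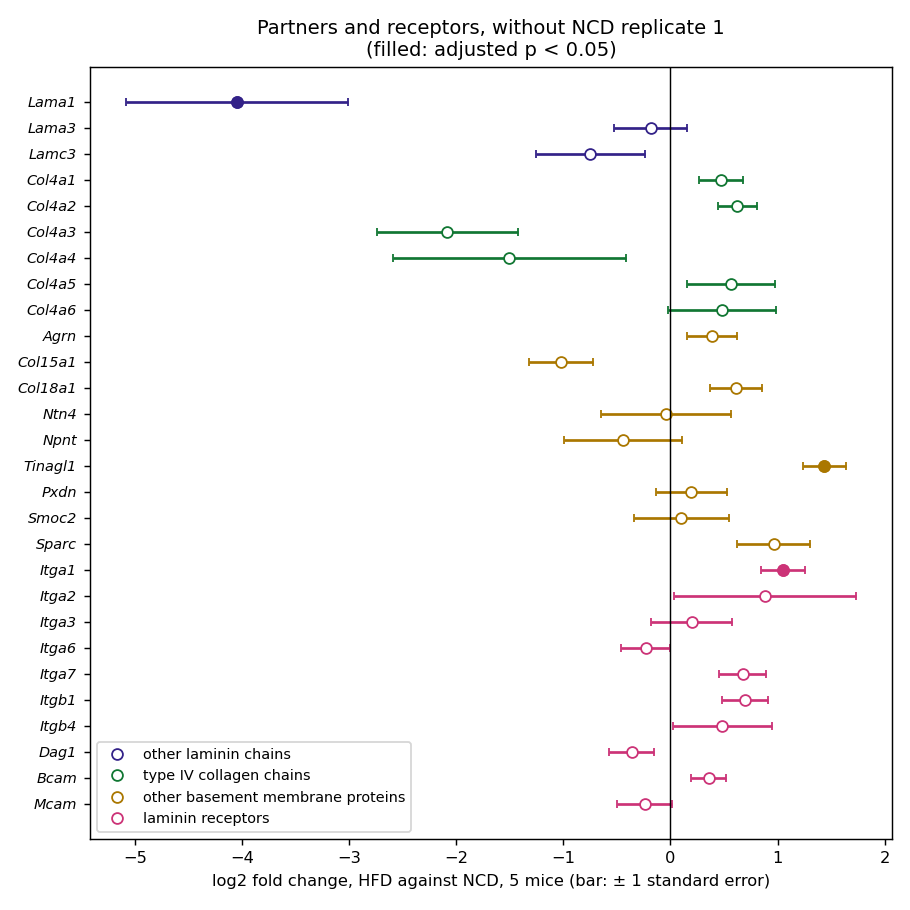
Log2 fold change of HFD against NCD (horizontal axis) with its standard error for the partner and receptor genes other than 1 not reported here, from the fit of the 5 mice without NCD replicate 1, coloured by gene list. Filled points passed an adjusted p under 0.05, namely Tinagl1 and Itga1, higher on HFD, and Lama1, lower.

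Other cell types differed between the mice beside these values. The 8 smooth muscle markers summed to 6744, 826 and 279 TMM-scaled CPM for NCD replicates 1 to 3 and to 358, 282 and 258 for HFD replicates 1 to 3. The 6 pericyte markers summed to 220, 563 and 686 on NCD and to 534, 466 and 365 on HFD. *Rgs5* led the pericyte sum, at 15938 and 18630 counts for NCD replicates 2 and 3 and 12446, 14391 and 8116 on HFD. *Pdgfrb* went the other way, at 4762 and 4717 against 7066, 8930 and 6070 counts. Without NCD replicate 1, 2 of the 6 pericyte markers had a positive log2 fold change. The 7 stromal progenitor markers summed to 1250, 2189 and 1832 on NCD and to 3630, 4461 and 2838 on HFD. That sum rested largely on the collagen gene *Col3a1*, at 57769 and 46465 counts for NCD replicates 2 and 3 and 124703, 242266 and 112756 on HFD. *Dcn* did not rise with it, at 53804 and 40148 against 41306, 58381 and 25163 counts. Without NCD replicate 1, 6 of the 7 stromal markers had a positive log2 fold change. The 6 Schwann cell markers stayed between 34.2 and 57.7 in all mice. *Lama4*, *Lamb1*, *Lamc1*, *Nid1*, *Nid2* and *Hspg2* were lowest in NCD replicate 1, as were the adipocyte, endothelial, pericyte and stromal progenitor sums. NCD replicate 1 held 2.02 to 4.52 times less of each of these genes than the mean of NCD replicates 2 and 3. *Lamb2* was 1.17 times lower there, and *Lamb3* was 4.13 times higher, *Lama5* and *Lama2* less so. The part of these cell types in the values of the 10 genes was not tested.

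**Figure D5:**
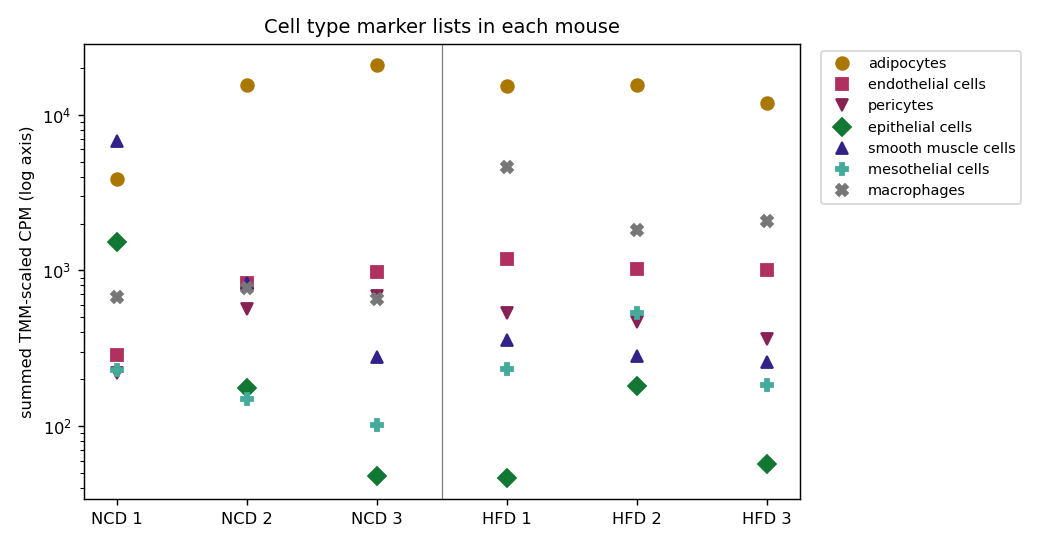
Summed TMM-scaled CPM of 7 cell type marker lists (vertical log axis) in each mouse (horizontal axis). NCD replicate 1 has the highest epithelial and smooth muscle sums, at 1524 and 6744, and the lowest adipocyte, endothelial and pericyte sums, while macrophage sums are higher in all HFD-fed mice.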

How the data were processed

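RNA of gWAT from 6 mice was sequenced. What the authors deposited is a table of unnormalized read counts, with NCBI gene identifiers as its lines and the mice as its columns. The submitters' processing notes name HISAT2 2.1.0, StringTie 1.3.4d, Trimmomatic, bcl2fastq 2.20.0 and DESeq2 and the builds mm10 and GRCm38. For the counting program and its annotation, neither is stated in the paper or the labels, so it is unknown how reads shared by overlapping genes were counted. Columns left without a sample numbered 0. Symbols and coordinates came from RefSeq GRCm38.p6 (19742 of 19790 identifiers) and exon lengths from GENCODE vM21 basic transcripts.

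The quasi-likelihood test of edgeR 4.0.16 (glmQLFit, glmQLFTest; R 4.3.3) was run on TMM-scaled counts of the genes that filterByExpr kept at a minimum count of 10 and a total of 15. The Benjamini-Hochberg adjusted p had a threshold of 0.05 over those genes, for 6 mice and for the 5 without NCD replicate 1. All 10 genes passed the filter in both fits. Levels are on the TMM scale of the 6 mice. Standard errors were derived from the log2 fold change and its F statistic. The procedure was tested on simulated data. Alternatives were no filter, median-of-ratios scaling, library totals with and without the seminal vesicle genes, DESeq2 1.42.0, the replicate number as a block, and each mouse left out. The members, gene lists and comparisons were chosen with earlier results of these data known. The genes named are the 10 members, the pathway genes past the threshold with 6 mice, the 3 of lowest p per list with 5 mice, and the nearest genes in pattern of *Lama4*, *Lamb1*, *Nid1* and *Hspg2*. No pair of replicates was a duplicate, since their counts gave a chi-square of 116 to 3597 for each degree of freedom. The values of 1 partner gene are not reported here. The p-values measure the spread between these mice.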

Additional observations from a re-analysis of the deposited data

How the results depend on the processing

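For the 5 mice, scaling by library totals with or without the seminal vesicle genes was chosen after seeing the data. With all 6 mice, 0 of the 10 genes and 1 of the 29 partner genes passed, where 7.47% of all genes did. Library totals alone gave 1 (*Lamb3*) and 2, where 6.29% of all genes passed, and DESeq2 gave 1 (*Hspg2*) and 5, where 25.7% did. With a mouse left out the counts ran from 0 to 3 for both, and both were 0 unless the mouse was NCD replicate 1, in fits that called 2 to 7 genes in all. Without NCD replicate 1, 3 and 3 passed, where 20.9% of all genes did. DESeq2 then gave 4, with *Hspg2* added, and 10, where 34.8% of all genes passed. Library totals alone gave 3 and 8 (22.6% of all genes), and with them or with totals without seminal vesicle genes *Hspg2* passed (adjusted p = 0.0307 and 0.0497 from edgeR) and *Nid2* did not. No filter gave 2 of the 10 (15.4% of all genes). With a further mouse left out, 0 to 3 of the 10 and 0 to 5 of the 29 passed, both 0 without NCD replicate 2 or 3, where 3.32% and 1.28% of all genes did. By their titles, same-numbered samples of the diets share only a number. Same-numbered mice did not deviate together (correlations of -0.05, -0.03 and -0.0068), which does not show how the mice were matched. In the deposited counts the column of HFD replicate 3 carries a different number from its title. The fit with the replicate block called 0 of the 10, 0 of the 29 and 12 genes in all. The median log2 fold change over the whole table, -0.08 with 6 mice and 0.02 with 5, became 0.44 and 0.23 with library totals alone.

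The log2 ratio differences over the fits without a mouse ranged from -0.96 to -0.44 for *Lamb2* to *Lamb1*, from -0.99 to -0.42 for *Nid2* to *Nid1*, from -0.24 to 0.71 for *Lama5* to *Lama4* and from -1.27 to -0.20 for *Lama2* to *Lama4*. Among the fold changes, signs turned only for genes far from the threshold. *Lamc1* with 6 mice (-0.002) turned to 0.0098 with no filter, 0.00087 with median-of-ratios scaling, 0.38 with library totals alone, 0.10 with totals without seminal vesicle genes, 0.00085 with DESeq2 and 0.060 with the block, and ranged from -0.26 to 0.19 without a mouse. *Lama2* turned to 0.23 with library totals alone and ranged from -0.84 to 0.15 without a mouse, or from -0.78 to 0.21 with 5 mice. *Lama4* ranged from -0.25 to 0.31 and *Lamb2* from -0.094 to 0.19 without a mouse. With 5 mice *Lamb2* (-0.03) turned to 0.18 and 0.072 with library totals and with totals without seminal vesicle genes, and ranged from -0.18 to 0.12, and *Nid1* ranged from -0.23 to 0.27 with a further mouse left out. The causes were not tested. *Lama5* also missed the threshold with no filter (adjusted p = 0.0545 from edgeR) and *Nid2* with library totals with and without the seminal vesicle genes (adjusted p = 0.0601 and 0.0516 from edgeR). With 5 mice *Lama1* missed it with no filter and with totals without the seminal vesicle genes (adjusted p = 0.0518 and 0.0513 from edgeR). Depth limits *Lamb3* most, with 177 counts in its lowest library, the other members having at least 741.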
